A study of Mus musculus with 24 samples.

Results

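Phlda3 and 9 other genes tied to the tumour suppressor p53 were followed in mouse plantaris, a fast hindlimb muscle, after exposure to tobacco smoke. The group was Phlda3, Trp53, Cdkn1a, Mdm2, Ccng1, Zmat3, Bax, Sesn1, Sesn2 and Eda2r, all 10 found by symbol among 47643 counted genes. The 24 samples were muscles of wild type C57BL/6 mice, 11 in normal air and 13 under smoke for 16 weeks, and the age and sex of the animals and the dose of smoke were not given in the labels used here. The assay was 3′-end RNA sequencing, in which a transcript gives reads near its poly(A) tail, so that the unit used below, CPM (counts scaled to a common library total), is not divided by gene length. Values are mean ± SD over the 11 air and 13 smoke samples. The group was chosen by the smoke against air result of Phlda3, its fold change and adjusted p-value, joined by well-known p53 targets, so the fold changes of its members describe these libraries and are no independent test.

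p53, the product of Trp53, is a transcription factor held at low levels by the ubiquitin ligase Mdm2 and stabilised by DNA damage and other stress. It is controlled mainly at the protein level, so that its activity is usually read from the transcripts of its targets. Cdkn1a halts the cell cycle, Bax opens the outer mitochondrial membrane in apoptosis, sestrins restrain mTORC1 signalling, and Phlda3 binds membrane phosphoinositides in competition with the kinase Akt. In muscle, Cdkn1a is also known as a gene of fibre atrophy, and Eda2r as a receptor linked to muscle wasting.

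The DNA element that p53 binds is made of a pair of decamers, each with 3 purines, a core C, 2 bases of A or T, a core G and 3 pyrimidines. RefSeq promoter windows (GRCm38.p6, 250 bases before to 50 bases after a gene's start) were at hand for 9 of the 10 genes, in 11 windows, and Zmat3 had none. Of these windows, 2 held 20 adjoining bases within 1 mismatch of the element, against 0.067% of all 32851 windows. In both counts every core C and G had to be kept. The 2 sites are shown because no other member window came within 2 mismatches, with the core C and G of each decamer in capitals. In this muscle Ccng1 was among the most abundant of the group and Cdkn1a among the scarcer ones. A link between site and level was not tested. The Cdkn1a site (plus strand, chr17:29090928-29090947) begins 51 bases before the more upstream of its 2 annotated starts, and the Ccng1 site (minus strand, chr11:40755462-40755481) 195 bases before its start.
Cdkn1a: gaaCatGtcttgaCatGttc
Ccng1: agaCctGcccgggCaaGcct
The element reads alike on both strands, so 1 search covered both.

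Exact single decamers occurred in 6 of the 11 windows, against 8.36% of all windows. Besides Cdkn1a and Ccng1 they lay before Mdm2 (GAACTTGCCT), Trp53 (GGACTTGCCC), Bax (AGGCAAGCTT) and Sesn1 (AAGCTTGTTT). The windows of Phlda3, Sesn2 and Eda2r held none. The 250 bases before the start of Phlda3 (plus strand, chr1:135765835-135766084) are printed because Phlda3 was the member whose transcript differed; capitals mark the decamer nearest to the consensus that keeps its core, at 2 mismatches, and 71.2% of the bases were G or C.
Phlda3: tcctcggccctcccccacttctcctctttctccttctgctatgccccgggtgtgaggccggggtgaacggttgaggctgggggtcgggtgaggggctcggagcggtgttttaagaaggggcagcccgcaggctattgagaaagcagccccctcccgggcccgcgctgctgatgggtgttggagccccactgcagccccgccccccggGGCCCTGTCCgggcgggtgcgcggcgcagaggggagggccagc
These matches describe letters in the windows, and elements farther from the starts were not searched. Most members were listed as known p53 targets, so shares above those of all windows follow from that choice and are no independent evidence.

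Phlda3 was lower after smoke. In air it ran from 545 to 966 CPM with a median of 797, and under smoke from 472 to 681 CPM with a median of 588. All 13 smoke samples lay below the air mean of 780 ± 116 CPM, 5 of them below the lowest air sample, and 9 of 11 air samples lay above the highest smoke sample. The groups overlapped through the 2 lowest air samples, replicate 2 at 545 CPM and replicate 6 at 672 CPM. The smoke mean was 582 ± 66.7 CPM, and the fitted log2 fold change was −0.42 (SE 0.072), a change of −25.4%. In the edgeR fit over 10159 genes its Benjamini-Hochberg adjusted p was 0.00107, the 8th smallest p-value of all. The call was lost with the Schwann cell and myelin score as a covariate (log2 fold change −0.34, edgeR adjusted p = 0.0505). That score was itself higher under smoke (mean log2 CPM 4.51 against 3.76 in air), so it carries part of the group difference. The Phlda3 call was also lost with an index of clock genes, added after the data were seen (−0.24, edgeR adjusted p = 0.259). The difference between smoke and air without covariates is the value for which the group was chosen, and it is given as a description. Counts of 1478 to 3687 reads per sample stood behind the Phlda3 values, where counting error alone gives a coefficient of variation of 1.90% in air and 2.24% under smoke against the 14.9% and 11.5% observed, so the spread between samples exceeded counting error.

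**Figure D1:**
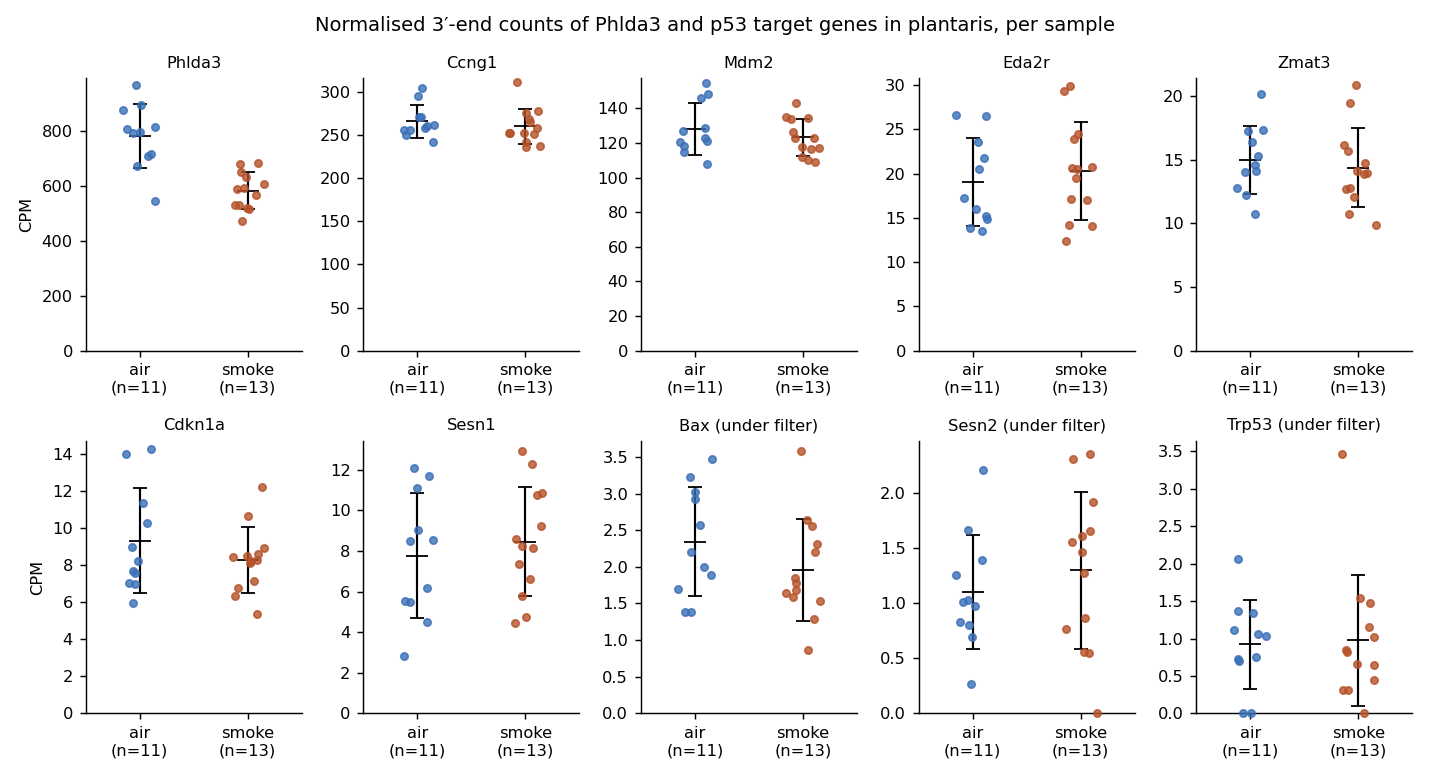
CPM of each gene in every sample, air in blue and smoke in brown, with mean and SD in black and each vertical axis starting at 0. Phlda3 is shifted down under smoke (air 545 to 966, smoke 472 to 681 CPM), with an overlap from 545 to 681 CPM that holds the 2 lowest air samples; the ranges of the other genes overlap as well.

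Among all genes, 195 of the 10159 tested (1.92%) were called at an adjusted p under 0.05, and 121 (1.19%) were called lower. In the group, 7 of the 10 members passed the expression filter, and 1 of these 7, Phlda3, was called. The filter asks for about 10 reads in enough of the 24 samples, a number set by the group sizes, and Trp53, Bax and Sesn2 did not reach it.

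The other high-abundance members had means close to those in air. Ccng1, which encodes a cyclin of the p53 feedback loop, ran from 241.2 to 304.7 CPM with a median of 261 in air and from 235.6 to 311.6 with a median of 252.1 under smoke. Its log2 fold change was −0.033 (SE 0.050), with a 95% interval of the fold from 0.911 to 1.05. Mdm2, the ligase that removes p53, ran from 108 to 155 CPM with a median of 123 in air and from 109 to 143 with a median of 123 under smoke. Its log2 fold change was −0.056 (SE 0.062), with a 95% interval of the fold from 0.882 to 1.05. The groups of both genes overlapped, with 3 air samples above the highest and 1 below the lowest smoke sample for Mdm2, and 2 smoke samples below and 1 above the air range for Ccng1.

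Because each library carries all of these transcripts, Phlda3 could also be set against Ccng1 and Mdm2 in the same library, which takes library scaling out. The ratio of Phlda3 to Ccng1 counts was 2.95 ± 0.480 in air (range 2.12 to 3.77) and 2.26 ± 0.365 under smoke (range 1.70 to 2.88), with 13 of the 13 smoke samples under the air mean. The ratio of Phlda3 to Mdm2 was 6.21 ± 1.40 in air and 4.74 ± 0.597 under smoke, again with 13 of 13 under it. Here the lowest value of all, 3.52, was an air sample, and no smoke sample lay below it. The ratio to Eda2r was 42.4 ± 8.02 in air and 30.7 ± 9.80 under smoke, with 11 of 13 under it and the highest value, 55.0, in a smoke sample. Phlda3 was chosen for its difference between the groups, so these ratios restate that difference without the scaling and add no independent evidence.

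**Figure D2:**
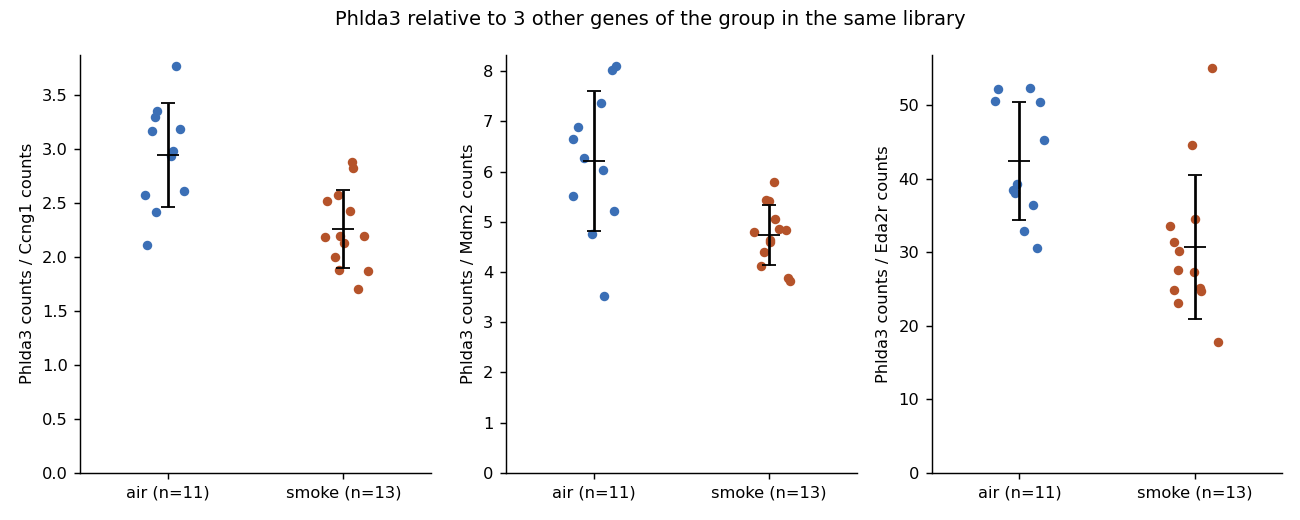
Counts of Phlda3 divided by those of Ccng1, Mdm2 and Eda2r in the same library, 1 point per sample with mean and SD in black. The ratios to Ccng1 and Mdm2 lie under the air mean for 13 of the 13 smoke samples, that to Eda2r for 11.

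The cell cycle inhibitor Cdkn1a was not called. It ran from 5.98 to 14.3 CPM with a median of 8.23 in air, and from 5.38 to 12.2 with a median of 8.26 under smoke. The medians were nearly equal, and the higher air mean (9.31 ± 2.83 against 8.28 ± 1.76 CPM) came from a few high air samples, 2 of which exceeded every smoke sample. The log2 fold change was −0.15 (SE 0.15), with a 95% interval of the fold from 0.731 to 1.10. With 14 to 55 reads per sample, counting error gives 17.5% and 18.6% of variation against the 30.4% and 21.3% observed. The locus AC167363.2 overlaps exons of Cdkn1a on the opposite strand, and whether counting used strand is not given in the sources used here. The interval of the fold includes 0.746, the fold fitted for Phlda3.

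Zmat3, which encodes a zinc-finger protein that binds RNA, ran from 10.7 to 20.2 CPM with a median of 14.6 in air and from 9.89 to 20.9 with a median of 13.97 under smoke. Its log2 fold change was −0.064 (SE 0.12), with a 95% interval of the fold from 0.813 to 1.13. All but 1 smoke sample at each end lay within the range of the air samples.

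The stress regulator Sesn1 and the receptor Eda2r had fitted fold changes above 0 that were smaller than their standard errors, and were not called. Sesn1 ran from 2.83 to 12.1 CPM with a median of 8.497 in air and from 4.47 to 12.9 with a median of 8.25 under smoke, a log2 fold change of 0.12 (SE 0.19, 95% interval of the fold 0.830 to 1.43). Eda2r ran from 13.5 to 26.7 CPM with a median of 17.3 in air and from 12.4 to 29.9 with a median of 20.5 under smoke, a log2 fold change of 0.093 (SE 0.14, 95% interval of the fold 0.878 to 1.30). For each, 8 of 13 smoke samples lay above the air mean; above the air median lay 6 for Sesn1, whose smoke median was the lower one, and 8 for Eda2r. Their coefficients of variation were 39.7% and 31.9% between samples for Sesn1 and 25.9% and 27.2% for Eda2r, in air and smoke.

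**Figure D3:**
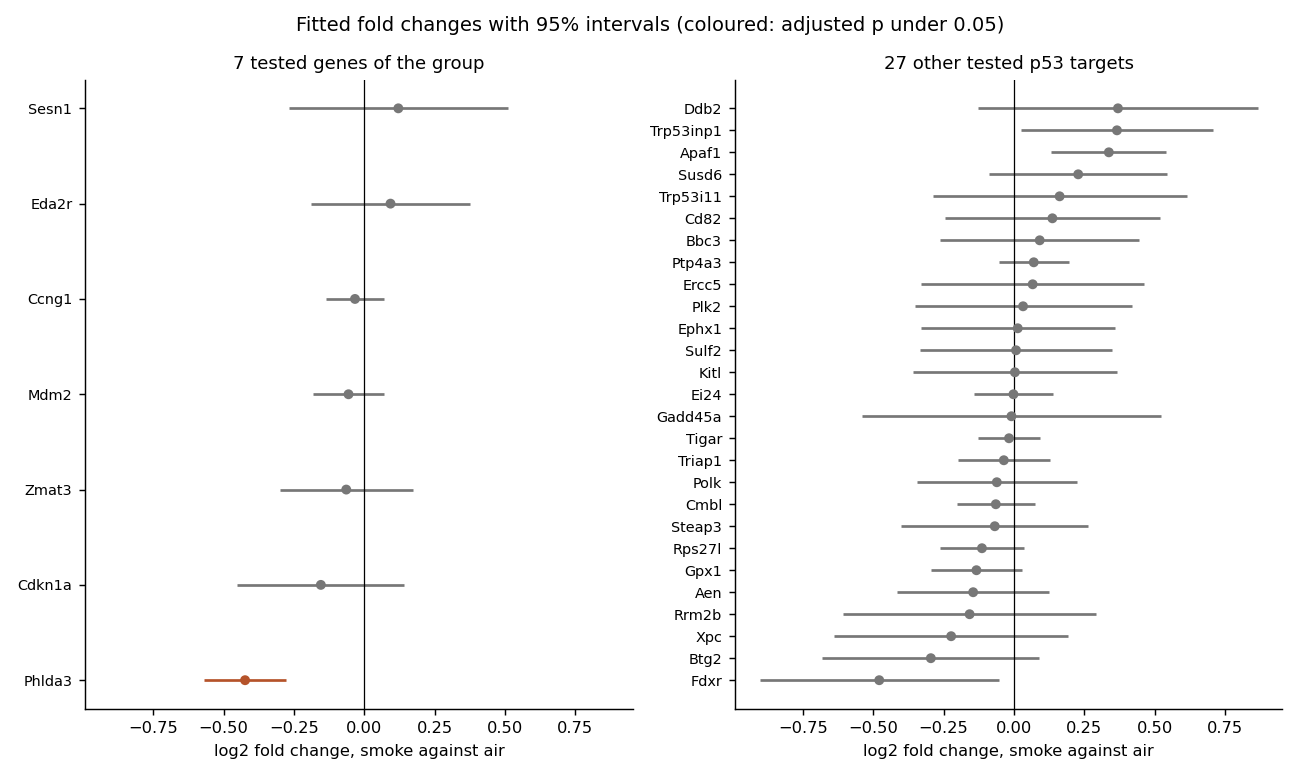
Log2 fold changes of smoke against air with 95% intervals, for the 7 tested genes of the group (left) and 27 other tested p53 targets (right), coloured where the adjusted p was under 0.05. Phlda3, at −0.42, is the coloured point; the other 6 lie between −0.15 and 0.12.

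Transcripts of p53 itself were scarce. Trp53 had 37 counts over the 11 air samples and 44 over the 13 smoke samples, between 0 and 12 per sample, with 2 air samples and 1 smoke sample at 0. Its mean was 0.924 ± 0.597 CPM in air and 0.977 ± 0.872 CPM under smoke, both within the range of the 3-count floor of single libraries (0.662 to 1.19 CPM), so that no fold is given. Sesn2 had 42 and 55 counts in all, between 0 and 8 per sample, and means of 1.10 ± 0.520 and 1.30 ± 0.712 CPM. Bax had 90 and 87 counts in all, 3 to 13 per sample, and means of 2.34 ± 0.742 CPM in air and 1.96 ± 0.696 CPM under smoke; its exons overlap those of Gm45808 on the same strand, so its counts are uncertain. These 3 genes were not tested, and at 3.36 to 8.18 reads per sample on average counting error alone gives between 35.0% and 54.5% of variation. Floors and counting errors cover counting only, since reads may include PCR copies.

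Set in order over all 24 samples, the levels fell from Phlda3 (673 ± 136 CPM) through Ccng1 (262.5 ± 19.6), Mdm2 (125.6 ± 12.9), Eda2r (19.7 ± 5.19), Zmat3 (14.7 ± 2.88), Cdkn1a (8.75 ± 2.32), Sesn1 (8.15 ± 2.84), Bax (2.14 ± 0.728) and Sesn2 (1.21 ± 0.626) to Trp53 (0.953 ± 0.743). In a 3′-end library this order is of reads per transcript end, and priming that differs between transcripts can shift it. Phlda3 ranked 129th of 10159 tested genes in abundance and Ccng1 377th, whereas Cdkn1a, the best-known p53 target, ranked 6570th. Phlda3 exceeded Ccng1 in 24 of 24 libraries, as Ccng1 did Mdm2. Cdkn1a and Sesn1 were not separated, with Cdkn1a ahead in 14 of 24, and neither were Sesn2 and Trp53, also 14 of 24. Eda2r led Zmat3 in 19 and Bax led Sesn2 in 18 of 24.

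Markers of other cell types moved with the groups as well. Of 9 Schwann cell and myelin markers, all tested and none at 0, 6 were called higher under smoke (0.728% of all tested genes were) and none lower; their summed level ran from 168.3 to 383 CPM in air (median 237.2) and from 242.6 to 1026 CPM under smoke (median 315.1). Of 5 erythrocyte markers, 3 were called lower (1.19% of all tested genes were), with sums of 486.4 to 1444 CPM in air and 368.6 to 882.9 CPM under smoke. Fast muscle markers, 7 of 7 tested, stood at 123500 to 195400 CPM in air and 130900 to 167200 CPM under smoke with none called, and no call was made among the tested markers of slow muscle (5 of 5 tested), endothelium (5 of 5), macrophages (4 of 6), adipocytes (4 of 4), fibroblasts (4 of 4) or satellite cells (2 of 3). In a whole muscle, fewer cells of a type and less RNA per cell cannot be told apart.

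Unlike with the myelin score, Phlda3 was still called with the erythrocyte score as a covariate, where its log2 difference was −0.50 (edgeR adjusted p = 0.00130). The index of clock genes, high when Dbp, Tef, Per and Nr1d genes are high against Arntl, Nfil3 and Clock, ran from 0.698 to 1.92 in air and from 1.19 to 2.88 under smoke in log2 units, and correlated with the group at 0.761, so that index and group are hard to separate. The hour at which muscles were taken is not given in the labels used here.

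**Figure D4:**
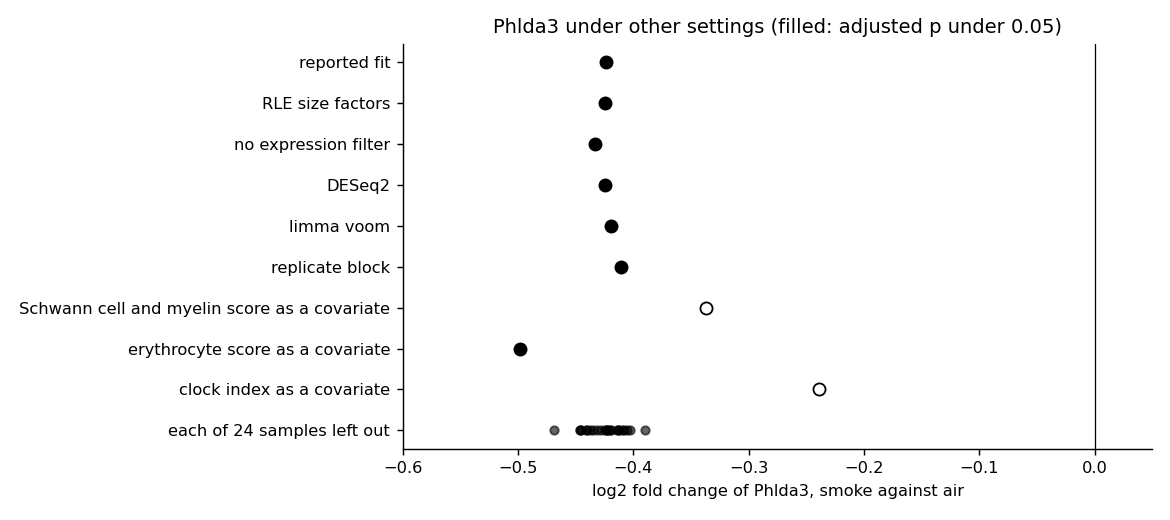
Log2 fold change of Phlda3, smoke against air, in the reported fit, under 8 other settings and with each of 24 samples left out, filled where the adjusted p was under 0.05. All points are negative, from −0.50 to −0.24, and 2 covariate fits are open.

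Among 47 further p53 targets, listed from general knowledge, 27 passed the filter and 0 were called by edgeR or by limma voom; 3 had an unadjusted p under 0.05 (15.5% of all tested genes did) and DESeq2 called 1 (over all tested genes DESeq2 called 3.18% and limma voom 1.72%). Their fold changes were spread on both sides, 13 positive and 14 negative, with a median log2 fold change of −0.0020 beside 0.0066 for all tested genes. The smallest p belonged to Apaf1, which builds the apoptosome. It ran from 10.3 to 19.2 CPM in air and from 14.7 to 21.8 CPM under smoke, with 13 of the 13 smoke samples above the air mean, and its log2 difference was 0.34 (SE 0.10, edgeR adjusted p = 0.0699). It was the gene that DESeq2 called, and edgeR called it when air replicate 2 or air replicate 11 was left out. Fdxr, a mitochondrial reductase, differed by −0.48 on the log2 scale (edgeR adjusted p = 0.242), and Trp53inp1, a stress protein that activates p53, one of 0.37 (edgeR adjusted p = 0.275).

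Of 16 genes that sense damage or control p53, 12 were tested, with 1 called higher (0.728% of all tested genes were) and 0 lower (1.19%). The called gene was Atr, a kinase of the DNA damage response, which rose from 12.2 ± 2.23 to 16.4 ± 2.81 CPM, with 12 of the 13 smoke samples above the air mean, by 0.42 on the log2 scale (SE 0.11, edgeR adjusted p = 0.0372). Its annotated exons overlap those of 1700065D16Rik, Gm24004 and Gm16794, so its counts are uncertain. The median of the 12 was 0.029 on the log2 scale.

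Of 12 genes of the Phlda family and the Akt pathway, 10 were tested and 0 were called by edgeR, DESeq2 or limma voom, with 1 at an unadjusted p under 0.05, beside 15.5% of all tested genes. The smallest p was that of the paralogue Phlda1, at 16.5 ± 5.92 CPM in air and 11.9 ± 2.93 CPM under smoke with 12 of the 13 smoke samples under the air mean, a log2 difference of −0.48 (SE 0.16, edgeR adjusted p = 0.11). Gm28592 overlaps it on the opposite strand. The median log2 fold change of the 10 was 0.036.

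In the signalling list of Eda2r, 1 of 6 tested genes was called, lower under smoke, beside 1.19% of all tested genes called lower. Traf3, an adaptor that restrains noncanonical NF-κB signalling, fell from 22.3 ± 3.72 to 17.6 ± 2.83 CPM, with 12 of the 13 smoke samples under the air mean, a log2 difference of −0.35 (SE 0.098, edgeR adjusted p = 0.0481). The kinase Map3k14 and the adaptor Traf6 of the same list were not called, at log2 fold changes of 0.028 and −0.12. The median of the 6 was −0.047.

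The remaining lists gave no call by edgeR, DESeq2 or limma voom, and their counts at an unadjusted p under 0.05 are to be read against the same 15.5%. In the Bcl2 family 7 of 11 genes were tested, with 0 at an unadjusted p under 0.05 and a median log2 fold change of 0.062; the smallest p was that of Bcl2, an inhibitor of Bax, at 0.14 (SE 0.095, edgeR adjusted p = 0.526). Among Sesn3 and the GATOR partners of the sestrins, 10 of 11 were tested, 1 had an unadjusted p under 0.05 and the median was −0.11, with Castor2, an arginine sensor family member, at −0.19 (SE 0.076, edgeR adjusted p = 0.205) and 13 of the 13 smoke samples under the air mean. Among other cyclins and cyclin-dependent kinase inhibitors 10 of 12 were tested, 1 had an unadjusted p under 0.05 and the median was −0.024, with cyclin D1 (Ccnd1) at −0.29 (SE 0.13, edgeR adjusted p = 0.228). Of 10 proliferation genes 1 was tested, Mcm2, a subunit of the replicative helicase, at 0.26 (SE 0.23, edgeR adjusted p = 0.661). Exons of Bcl2 and Ccnd1 overlap D630008O14Rik and LTO1 on the opposite strand, so their counts are uncertain.

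Whether samples with more Phlda3 also had more of the other members was asked within each group, which does not use the contrast of smoke and air. Of 12 relations, 0 held after Benjamini-Hochberg adjustment (permutation p of Pearson's r, adjusted, from 0.127 to 0.924, of Spearman's rho from 0.118 to 0.992), and 3 had an unadjusted p of r under 0.05, all in air. With Eda2r in air (n = 11) r was 0.65 (permutation p = 0.0244, adjusted 0.127) and rho 0.75 (permutation p = 0.00982, adjusted 0.118), and r became 0.46 once the 2 samples farthest from the Phlda3 median were dropped. With Sesn1 in air r was 0.66 (permutation p = 0.0263, adjusted 0.127) and rho 0.65 (permutation p = 0.0356, adjusted 0.214), and r was 0.56 without the 2 samples. With Mdm2 in air r was −0.64 (permutation p = 0.0318, adjusted 0.127) and rho −0.55 (permutation p = 0.0821, adjusted 0.329), and r was −0.41 without them. In smoke (n = 13) the same relations had r of 0.060, 0.029 and 0.23 (permutation p = 0.845, 0.924 and 0.445), and the difference between the groups was not tested. With Cdkn1a r was −0.47 in air, which became 0.023 without the 2 samples and so rested on them, and −0.17 in smoke (permutation p = 0.141 and 0.576).

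Phlda3 was set against 9 cell type marker scores and log2 total counts in the same way, a step added after the data were seen. Of these 20 relations 0 passed the same adjustment: the smallest adjusted permutation p was 0.307 for r and 0.224 for rho, while 3 had an unadjusted p of r under 0.05. With the erythrocyte score in air r was −0.60 (permutation p = 0.0460, adjusted 0.307) and rho −0.65 (permutation p = 0.0325, adjusted 0.325). Dropping the 2 samples whose scores lay farthest out from the median left r at −0.40. With the same score in smoke r was 0.014 (permutation p = 0.964) and 0.43 without 2 samples. In smoke r was −0.63 with the adipocyte score (permutation p = 0.0177, adjusted 0.307; rho −0.49, permutation p = 0.0896, adjusted 0.567; −0.41 without 2 samples). With the Schwann cell and myelin score in smoke r was −0.57 (permutation p = 0.0417, adjusted 0.307; rho −0.40, permutation p = 0.183, adjusted 0.567; −0.38 without 2 samples). With the fibroblast score in smoke r was 0.52 (permutation p = 0.0704, adjusted 0.352; rho 0.69, permutation p = 0.0112, adjusted 0.224; r 0.52 without 2 samples). In air the adipocyte, Schwann cell and myelin, and fibroblast scores had r of −0.21, 0.075 and −0.25 (permutation p = 0.494, 0.815 and 0.460). The difference between the groups was not tested. With total counts r was 0.46 in air, turning to −0.34 without 2 samples and so resting on them, and −0.087 in smoke (permutation p = 0.159 and 0.776). The part of these scores in the relations among members was not tested.

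**Figure D5:**
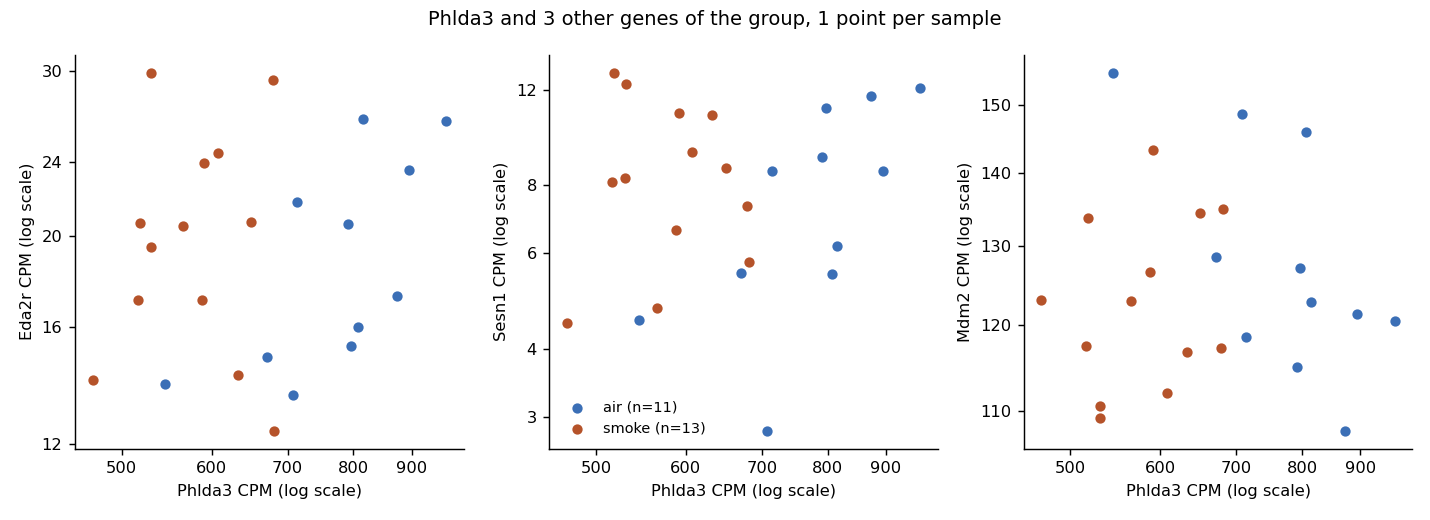
Phlda3 CPM against Eda2r, Sesn1 and Mdm2 CPM on log axes, 1 point per sample, air in blue and smoke in brown. In air Eda2r and Sesn1 tend to be higher where Phlda3 is higher (r 0.65 and 0.66) and Mdm2 lower (r −0.64), none past adjustment, and in smoke the points show no such slope (r 0.060, 0.029 and 0.23).

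Over all 24 samples, after group means were removed, the genes whose log2 CPM followed Phlda3 most closely were Frat2 (r 0.73), Klf15 (0.71), Acvr1 (0.70), Lnpk (0.69) and Hoxa9 (0.68). These values are the highest of 10158 and are given as a description; within each sample the genes come from 1 library and share its depth. Frat2 encodes a protein of Wnt signalling that binds GSK3, Klf15 a transcription factor of muscle metabolism that responds to glucocorticoids, and Acvr1 a receptor for bone morphogenetic proteins. Within air their r was 0.90, 0.87, 0.80, 0.68 and 0.74 in that order, and within smoke 0.47, 0.38, 0.55, 0.71 and 0.70, with no test of any difference between the groups. None of the 5 was called between smoke and air, with log2 fold changes from −0.21 (Lnpk) to 0.30 (Klf15). Among members Sesn1 came 611th (r 0.41) and Eda2r 906th (0.36), and Cdkn1a came 9304th (−0.36). Of the 15 pairs of tested members without Phlda3, the 3 with the largest r in size, picked for that, were Mdm2 with Sesn1 (−0.50), Sesn1 with Eda2r (0.49) and Mdm2 with Eda2r (−0.43); the other 12 lay between −0.24 and 0.34, and none was tested.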

How the data were processed

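Per the labels' protocols, plantaris RNA was made into Lexogen QuantSeq 3′ forward libraries and sequenced on an Illumina HiSeq. The values the authors deposited are unnormalised read counts by Ensembl gene ID with a column for each sample, summing to 2515697 to 4528845 per library. The submitters' processing notes name STAR, DESeq2 and mm9, without roles or versions; the counting tool, annotation, strand setting and use of molecular identifiers are not given in the sources used here. Per the file headers all samples were on 1 lane, with smoke and air in separate blocks of sample numbers, an order that cannot be told apart from the groups.

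Symbols came from GENCODE M21 (47224 of 47643 IDs, 99.1%); promoters are RefSeq sequences on GRCm38.p6, which is not the mm9 of the notes. Genes were kept by filterByExpr (minimum count 10), scaled by TMM and tested with edgeR 4.0.16 in R 4.3.3 (quasi-likelihood, 24 samples, no covariate), called at a Benjamini-Hochberg adjusted p under 0.05. The 95% intervals are the fold change ± the t quantile times SE. The procedure was tested on simulated data. Relations used log2 CPM (prior count 2) and two-sided permutation tests with 100000 resamples. Marker scores are mean log2 CPM. Alternatives used DESeq2 1.42.0 and limma 3.58.1. Within groups, 133 library pairs differed by 2.51 to 18.7 in chi-square per gene, so none was merged.

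The members and lists were chosen with earlier results of these data known. Genes named are the 10 members, in each list the called genes or else the gene with the smallest p, and the 5 genes most like Phlda3; Fdxr, Trp53inp1, Map3k14 and Traf6 were named after their values were seen. The labels do not say which samples come from separate animals beyond their replicate numbers, so p-values measure the spread between these samples.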

Additional observations from a re-analysis of the deposited data

How the results depend on the processing

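Against 195 genes called, DESeq2 called 323, the Schwann cell and myelin score as a covariate left 71, the erythrocyte score left 56, and the clock index, added after the data were seen, left 53; the other settings gave 138 to 201, and leaving out each sample in turn gave 141 to 254. The other p53 targets called numbered 0 in the reported fit, 1 with DESeq2 and from 0 to 1 when samples were left out. Phlda3 kept a negative fold change in all of these fits, from −0.47 to −0.39 when samples were left out (called in 24 of 24), and was not called under the myelin score and the clock index; the cause was not tested. No other tested member was called in any fit, and Zmat3 changed sign under all 3 covariates, to at most 0.22. The count of relations with Phlda3 that passed was 0 with a prior count of 0.5 and with RLE scaling too.

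Replicate numbers are shared between groups, but same-numbered samples did not deviate together (mean r −0.0059 over 11 pairs, 0.0011 over 132 others). A replicate block in the model (22 samples) gave 138 called genes, 0 of the other p53 targets among them, and −0.41 for Phlda3 on the log2 scale (edgeR adjusted p = 0.00204). Depth limits the low members: Trp53, Bax and Sesn2 did not reach the expression filter, and without it none of the 3 was called (edgeR adjusted p = 0.960, 0.665 and 0.862).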
